A study of Mus musculus with 24 samples.

Results

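Immediate early genes are switched on within minutes of a stimulus from transcription factors already present in the cell, so their transcripts are sensitive to the last signals a tissue received before its RNA was taken. The 10 genes described here are Fos, Fosb, Jun, Junb, Egr1, Egr2, Atf3, Ier2, Dusp1 and Nr4a1, followed over mutant and wild-type mice at 4 reproductive stages. Each is represented by the probe set that carries its symbol alone in the platform annotation. They are 10 of 22180 genes with a single symbol, each has 1 probe set, and all 10 were among the 15234 genes tested and lay above the array median on all 24 arrays.

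RNA was measured on 24 single-colour arrays, 3 in each of 8 groups: mutant (M) mice and wild-type (WT) mice, each at stage codes V, dp12, dp18 and Lac10. All mice shared a mixed FVB/129SVEV/Black Swiss background, and V is labelled virgin. Some titles carry a colour word that no label explains. At Lac10 it was white, brown and brown in wild type and white, golden and white in mutants. Where given at dp18, it was white and brown in wild type and white in mutants. Its part in the results was not tested. The series concerns BRCA1, a tumour suppressor of homologous recombination repair, and oestrogen signalling in pregnancy, but the labels give neither the mutated allele nor the promoter or cell type of any deletion, nor the tissue. The design text counts the stages in months and the treatment text describes a pull-down with tagged PAB-1 that differs from the total RNA named elsewhere, so the codes are printed as labelled. Ages are not stated. Each mutant title carries a number of its own and most titles a body weight, as for separate mice, although no label says so outright, and p-values speak for the spread between these arrays.

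In the textbook view, mitogens and stress act through the kinases ERK, JNK and p38 and through calcium and cyclic AMP. The phosphorylated factors ELK1 with SRF, at CArG boxes, and CREB, at cyclic AMP response elements (CRE), then start transcription of these genes. FOS, FOSB, JUN and JUNB pair through leucine zippers as the AP-1 transcription factor, and DUSP1 removes phosphate from the kinases and so damps the response. In mammary tissue these genes are known to respond to growth factors, to steroid hormones and to the handling of the tissue itself.

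Promoter sequence was taken from RefSeq (GRCm38.p6) for 8 members, and the 250 bases before each start were searched on both strands. Egr1 and Ier2 were not searched, nor were bases farther from a start. A motif given below for 1 member alone may therefore occur there too. The CRE half-site TGACG, which also forms part of the full CRE TGACGTCA, was in the promoter of 7 of the 8 members, all but Jun, against 19.8% of 27025 genes with it in at least 1 of their promoters. Among the 8 members searched, the full CRE was found in Dusp1 alone (1.77% of genes) and the CArG box in Egr2 alone (1.62%). The EGR site GCGGGGGCG was found in Fosb and Nr4a1 (2.93%), and the letters TATAAA in Fos (14.3%). The AP-1 site TGACTCA (5.16% of genes) and the EGR site GCGTGGGCG (0.622%) matched no member. The stretches below carry matches of 6 members and are shown because they are the letters these share or differ in. The match in Atf3 and some of those in Egr2 and Nr4a1 lie outside them; capitals mark the matches on either strand. Fos is at chr12:85473750-85473869 (plus strand) and Dusp1 at chr17:26508593-26508672 (minus strand). The others are Fosb at chr7:19310082-19310111 (minus), Egr2 at chr10:67537793-67537822 (plus), Nr4a1 at chr15:101266774-101266803 (plus) and Junb at chr8:84978838-84978867 (minus).
Fos: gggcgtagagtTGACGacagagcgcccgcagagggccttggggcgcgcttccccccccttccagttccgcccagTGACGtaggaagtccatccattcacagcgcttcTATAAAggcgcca
Dusp1: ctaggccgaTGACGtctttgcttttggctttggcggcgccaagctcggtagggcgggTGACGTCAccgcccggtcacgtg
Fosb: tgcgggTGACGcaagcGCGGGGGCGggtcc
Egr2: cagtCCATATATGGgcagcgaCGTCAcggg
Nr4a1: gtgCGTCAgtggCGCCCCCGCccctctcca
Junb: cgcttcctgacagTGACGcgagccgcctcc
These matches describe letters and not bound sites, and Egr2, which has several annotated starts, is shown for a start whose window held the most matches.

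**Figure D1:**
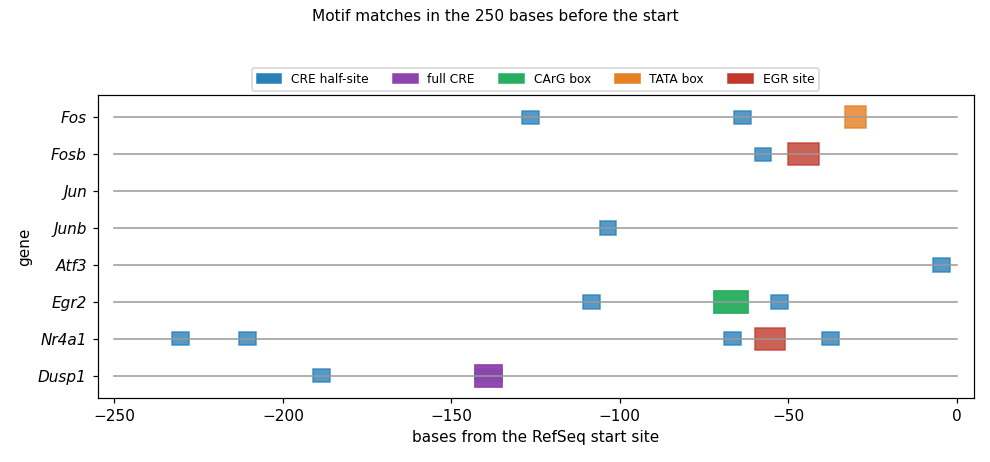
Each line is the 250 bases before the RefSeq start of 1 gene, with position in bases on the x axis and coloured boxes for motif matches on either strand. Half-sites of the CRE appear in 7 of 8 genes, the full CRE only in Dusp1 and the CArG box only in Egr2, while Jun has no match to these motifs.

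The values are log2 expression from robust multi-array averaging (RMA), which brings arrays towards a common distribution. The true size of a shift common to most genes therefore cannot be read from them. Array medians still lay between 5.31 and 5.62, and most genes could lean to 1 side, as the shares of all genes below show. The tests were moderated statistics from limma on all 24 arrays, with p-values adjusted by Benjamini-Hochberg over all 15234 genes and a threshold of 0.05. Genotype differences are given as mutant minus wild type and steps as the later stage minus the earlier, with 3 arrays in each group. The 3 arrays below correlated least with the rest: mutant Lac10 replicate 2, wild-type dp18 replicate 1 and mutant dp18 replicate 1. They also had the highest array medians and the lowest housekeeping medians, 7.95, 8.18 and 8.44 in that order. A further measure was taken after subtracting the mean of all other arrays. By it, mutant and wild-type Lac10 replicate 1 correlated below 0 with the other arrays of their stage, as did 4 of the 6 dp18 arrays. Without that subtraction the median correlation with all other arrays was 0.949 for mutant and 0.965 for wild-type Lac10 replicate 1. As for the tissue, milk protein genes averaged 10.6 to 12.1 in mutants and 11.2 to 12.2 in wild type at Lac10, while keratinocyte and hair follicle genes stayed at 4.64 to 5.13 on the Lac10 and V arrays, below the array medians.

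The mutant Lac10 group had the lowest of the 8 group means for all 10 members, against 26.6% of all genes with their lowest mean there. The highest mean was in mutant dp12 for 6 members (Fosb, Junb, Egr1, Atf3, Ier2 and Nr4a1, against 17.8% of genes), in mutant V for Jun, Egr2 and Dusp1 (19.3%) and in wild-type Lac10 for Fos (16.7%). Much of the first pattern rested on 1 array. Without mutant Lac10 replicate 2 the mutant Lac10 mean was lowest for 4 members (Fosb, Egr2, Dusp1 and Nr4a1), against 9.52% of genes. With arrays centred on housekeeping genes it was lowest for 3 (Fosb, Ier2 and Nr4a1), against 5.92% of genes.

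**Figure D2:**
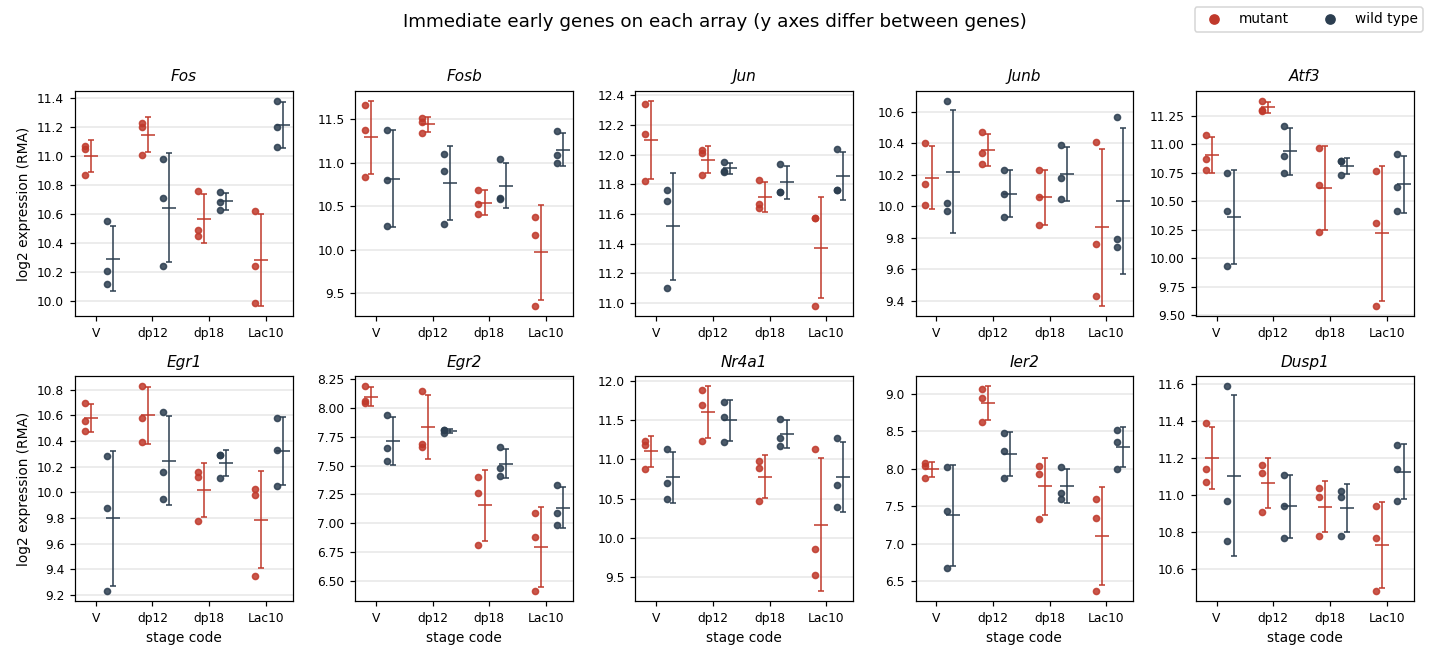
Log2 expression of each member on each array by stage code, mutant left of wild type, with bars for the group mean and SD (n = 3). Fos is high in wild type and low in mutants at Lac10, the reverse of V, while Egr2 is lower at Lac10 than at V in both genotypes.

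The first question was whether mutants differed from wild type at Lac10. All 10 members had lower means in mutants, with a median difference of -0.51, beside 66.4% of all genes lower and a median of -0.19 over all genes. Fos, Fosb and Ier2 had the largest differences, but no member passed the test, whereas 36 genes (0.236%), all lower, passed. At an unadjusted p under 0.05 there were 5 members, Fos, Fosb, Jun, Egr1 and Ier2, against 17.6% of genes.

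Fos, a leucine zipper subunit of AP-1, read 10.24, 9.99 and 10.62 on the mutant Lac10 arrays and 11.20, 11.06 and 11.38 on the wild-type ones. Every mutant array lay below every wild-type array. The difference was -0.93 (SE 0.20; 95% interval -1.35 to -0.51; adjusted p = 0.0585), a level 0.524 times that of wild type. Whether fewer cells carried the transcript or each cell held less of it cannot be told apart in bulk RNA, here or in the results that follow.

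Fosb, a Fos relative known for lasting splice forms, read 10.38, 9.35 and 10.17 in mutants and 11.36, 11.09 and 11.00 in wild type at Lac10. Ier2, a nuclear immediate early protein, read 7.60, 6.37 and 7.35 in mutants and 8.35, 7.99 and 8.52 in wild type. Neither gene overlapped between the genotypes, and mutant replicate 2 was the lowest array for both. Their differences were -1.18 (SE 0.30, adjusted p = 0.0775) for Fosb and -1.18 (SE 0.32, adjusted p = 0.0846) for Ier2.

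Jun, the AP-1 partner that can also pair with itself, read 11.57, 10.98 and 11.57 in mutants against 12.04, 11.76 and 11.76 in wild type. Egr1, a zinc finger factor of GC-rich sites, read 9.98, 9.35 and 10.03 in mutants against 10.58, 10.33 and 10.05 in wild type, so the highest mutant array lay just under the lowest wild-type one. With Dusp1, at 10.94, 10.48 and 10.77 in mutants against 10.97, 11.14 and 11.27 in wild type, these made 6 members below wild type without overlap, where 12.4% of all genes did the same. The adjusted p was 0.232 for Jun, 0.282 for Egr1 and 0.312 for Dusp1.

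The other 4 members overlapped between the genotypes. Nr4a1, an orphan nuclear receptor, read 11.13, 9.52 and 9.85 in mutants and 11.27, 10.67 and 10.39 in wild type. Atf3, a stress-induced zipper factor, read 10.76, 9.58 and 10.31 in mutants and 10.91, 10.41 and 10.62 in wild type. Junb and Egr2 differed by -0.16 and -0.34, with 95% intervals that include 0.

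Housekeeping genes lay on the same side at Lac10. Of 21 housekeeping genes measured, 20 were lower in mutants, with a median of -0.41, and their mean level ran from 8.20 to 9.16 over the mutant arrays and from 9.25 to 9.43 over the wild-type arrays. Centring each array on these genes shifted the all-gene median by 0.54 and left 4 members lower and 6 higher in mutants, with Fos at -0.40 (adjusted p = 0.30), Fosb at -0.65 and Ier2 at -0.64. The direction for Jun and Egr1 changed, to 0.05 and 0.0032. Of 14 luminal epithelium genes 13 were lower in mutants, with a median of -1.03 and mean levels of 6.51 to 9.52 in mutants against 8.34 to 9.57 in wild type. White adipocyte genes averaged 6.90, 7.82 and 9.22 on mutant replicates 1, 2 and 3 against 7.22 to 7.54 in wild type, and their marker Adipoq read 4.73, 5.66 and 7.61 against 4.42 to 4.98. Endothelial genes averaged 7.49 to 9.82 in mutants and 8.69 to 9.60 in wild type. The part of these cell types in the results was not tested.

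The same comparison at V ran the other way. Mutants had the higher mean for 9 of 10 members, all but Junb, with a median of 0.51, beside 67.4% of all genes higher and a median of 0.20. No member passed, and 4 genes (0.0263%) did. At an unadjusted p under 0.05 there were 3 members, Fos, Jun and Egr1, against 15.8% of genes.

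Fos read 11.05, 10.87 and 11.07 in mutant V arrays and 10.21, 10.55 and 10.12 in wild-type V arrays, a difference of 0.70 (SE 0.20; 95% interval 0.28 to 1.12; adjusted p = 0.223). Egr1 read 10.70, 10.56 and 10.48 in mutants and 9.88, 10.28 and 9.23 in wild type, a difference of 0.78 (SE 0.25, adjusted p = 0.236). Jun read 12.34, 11.82 and 12.14 in mutants and 11.69, 11.76 and 11.10 in wild type, a difference of 0.59 (SE 0.20, adjusted p = 0.255). The mutant arrays lay above every wild-type array for these genes and for Egr2 and Atf3, which makes 5 members where 25.5% of all genes did so.

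Wild-type V arrays were the more spread. Ier2 read 8.03, 7.88 and 8.07 in mutants against 7.44, 8.02 and 6.68 in wild type. Fosb read 10.83, 11.66 and 11.38 in mutants and 10.27, 11.38 and 10.80 in wild type. The difference was 0.61 for Ier2 and 0.48 for Fosb, and both 95% intervals include 0. All 14 luminal genes were higher in mutants at V, with mean levels of 9.41 to 9.59 in mutants and 8.34 to 9.22 in wild type, and 16 of 21 housekeeping genes were. Wild-type V replicate 2 averaged 7.15 for skeletal muscle genes, against 5.42 and 5.62 on replicates 1 and 3 and 5.30 to 5.91 in mutants. Its T and B lymphocyte genes averaged 7.95, against 5.70 and 5.52 there and 5.45 to 7.52 in mutants. Its macrophage and neutrophil genes averaged 7.99, against 5.98 and 7.22 there and 6.31 to 6.84 in mutants. With housekeeping centring 8 members remained higher and the differences were 0.53 for Fos, 0.61 for Egr1 and 0.42 for Jun. The part of these lists in the result was not tested.

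**Figure D3:**
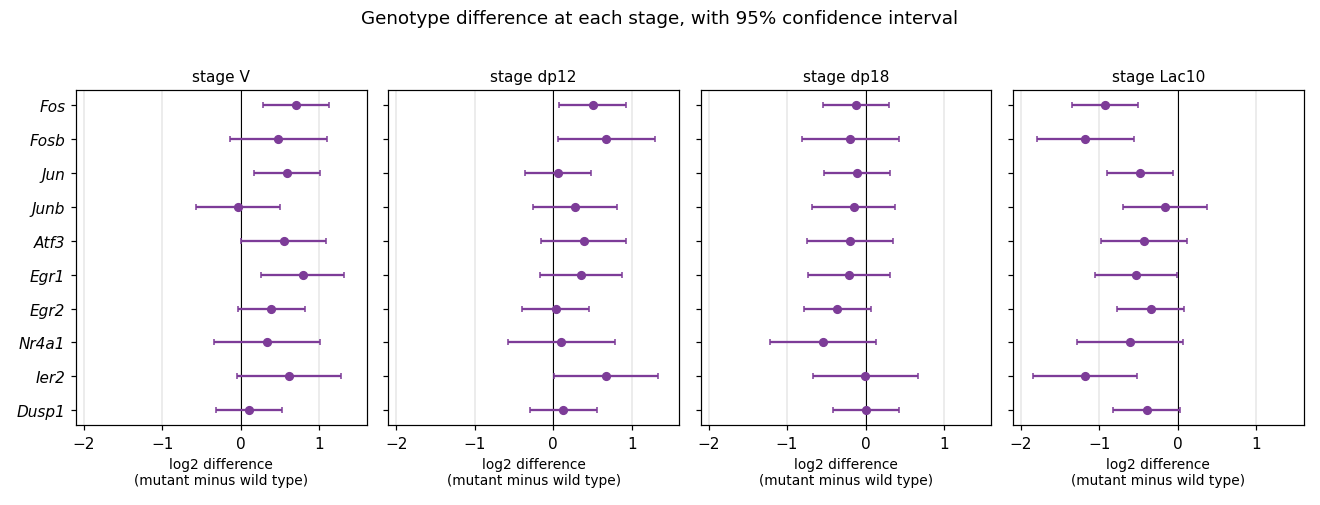
Log2 difference, mutant minus wild type, for each member at each stage, with the 95% interval from the limma fit. Most points lie right of 0 at V and dp12 and all lie left of 0 at Lac10.

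The step between V and Lac10 was then compared between the genotypes, which tests whether the genotype difference was unequal at those stages. The mutant step minus the wild-type step was negative for all 10 members, beside 71.2% of genes, with a median of -1.02 against -0.44 over all genes. Ier2 had -1.79 (SE 0.45), Fosb -1.66 (SE 0.42), Fos -1.63 (SE 0.29), Egr1 -1.32 (SE 0.36) and Jun -1.07 (SE 0.29). Fos came nearest to the threshold (adjusted p = 0.0512) and the other 4 had adjusted p of 0.0636 or 0.0644. No member passed, where 3 genes (0.0197%) did, and 7 members had an unadjusted p under 0.05, against 30.8% of genes. Junb differed least, at -0.13 (SE 0.36).

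Fos, Jun and Egr1 were higher in mutants at V and lower in mutants at Lac10 without overlap at either stage, as were 4.15% of all genes. These 2 comparisons and the step share the same 12 arrays, so they are views of the same values. With housekeeping centring the step difference was -0.93 for Fos, -0.61 for Egr1 and -0.36 for Jun (adjusted p = 0.188, 0.362 and 0.525), the all-gene median having shifted by 0.71. With the 3 least correlated arrays left out it was -1.48 for Fos (adjusted p = 0.00485), and 5 members passed, Fos, Fosb, Ier2, Egr1 and Jun, when 2012 of all genes did. With those and the Lac10 arrays named above left out Fos alone passed, with 595 genes. The F test of unequal genotype differences over the 4 stages passed for no member, Fos having the smallest adjusted p, 0.138; 1 gene (0.00656%) passed and 6 members had an unadjusted p under 0.05, against 12.4% of genes.

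Within mutants, Egr2 and Fosb fell between V and Lac10. Egr2, an EGR factor first known from hindbrain and Schwann cells, read 7.09, 6.41 and 6.88 at Lac10 and 8.04, 8.06 and 8.19 at V, and all Lac10 arrays were lower. Peripheral nerve genes, 4 on the array, averaged 6.13 to 6.94 at Lac10, just under the 6.94 to 7.17 at V, and in wild type 6.81 to 7.06 at Lac10 and 6.76 to 6.95 at V, and their part was not tested. The change was -1.31 (SE 0.20, adjusted p = 0.00184), a 2.47-fold lower level. Fosb changed by -1.32 (SE 0.30, adjusted p = 0.0249), from arrays given above that do not overlap.

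These were 2 of 10 members, where 2.59% of genes fell and 2.88% changed in either direction. All 10 had lower means at Lac10, beside 63% of genes, with a median of -0.76 against -0.18 over all genes. Fos (-0.72), Jun (-0.73), Egr1 (-0.79), Ier2 (-0.89) and Nr4a1 (-0.93) did not pass, with adjusted p between 0.0528 and 0.110. Without overlap 8 members were lower at Lac10, all but Junb and Nr4a1, against 18.3% of genes. Fosb lost its call without mutant Lac10 replicate 2 (-1.01, adjusted p = 0.184), without mutant V replicate 2 (-1.13, 0.147) or 3 (-1.28, 0.0764) and with housekeeping centring (-1.08, 0.0840), which Egr2 passed at -1.06 (adjusted p = 0.0179). All genes called in these settings were 69, 64, 138 and 623 in that order. Fitted on the 6 arrays alone neither passed (Egr2 adjusted p = 0.214), and without mutant Lac10 replicate 1 there were 7 calls, when 1794 of all genes were called against 438 as reported.

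Within wild type 1 member was called between V and Lac10. The direct test of the mutant step against the wild-type step, given above, passed for no member. Fos rose by 0.92 (SE 0.20, adjusted p = 0.00925), a 1.89-fold higher level, and its Lac10 arrays given above all lay over its V arrays. It was among the 6.01% of genes that rose and the 7.24% that changed in either direction. Ier2, at 0.91 (SE 0.32, adjusted p = 0.0887), and Egr2, at -0.58 (SE 0.20, adjusted p = 0.0924), did not pass.

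Egr2 read 7.33, 7.09 and 6.98 in wild-type Lac10 arrays and 7.65, 7.94 and 7.54 in V arrays, again without overlap, as for 10.9% of genes on that side. Fos and Jun had higher Lac10 than V arrays without overlap (26.4% of genes), and both were lower at Lac10 without overlap in mutants (4.14% of genes had such opposed steps). For Jun in wild type the stages barely parted, the highest V array reading 11.7592 and the lowest Lac10 array 11.7625. The Fos call was lost without wild-type V replicate 3 (0.83, adjusted p = 0.0565), without wild-type Lac10 replicate 3 (0.83, 0.0586) and with housekeeping centring (0.46, 0.235). Leaving out those arrays left 418 and 362 of all genes called, against 1103 as reported. The Fos call held without the 3 arrays of lowest correlation (0.92, adjusted p = 0.00181), when 4238 genes were called.

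Averaged over the genotypes, Egr2 fell by 0.94 between V and Lac10 (SE 0.14, adjusted p = 0.000525), a 1.92-fold lower level, the only member among the 6.6% of genes called and the 3.53% that fell. It kept its call under all 36 alternatives, with values between -1.06 and -0.76 and a highest adjusted p of 0.0187. Group means followed the stages in mutants at 8.10, 7.83, 7.16 and 6.79, and in wild type at 7.71, 7.80, 7.52 and 7.14 (V, dp12, dp18 and Lac10). The mutant minus wild-type step for Egr2 was -0.73 (SE 0.29, adjusted p = 0.111). It did not pass as reported but did with body weight as a covariate (-0.80, adjusted p = 0.0262), when 4563 genes passed. That fit also left out mutant and wild-type dp18 replicate 1, which have no body weight. Without the covariate, leaving out the mutant array alone gave 1114 genes and the wild-type array alone 2206, Egr2 passing in neither.

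At dp12 all 10 members had higher means in mutants, beside 49.1% of genes, with a median of 0.32 against -0.0035 over all genes. Fos read 11.00, 11.20 and 11.23 in mutants and 10.71, 10.98 and 10.24 in wild type. Fosb read 11.51, 11.34 and 11.47 in mutants and 10.91, 11.10 and 10.29 in wild type. Together with Junb, Atf3 and Ier2 these lay above wild type without overlap, 5 members where 6.69% of genes did so. None passed the limma test, in which 0 genes passed (0%), and the 3 members with an unadjusted p under 0.05 were Fos (0.50), Fosb (0.67) and Ier2 (0.67), against 1.21% of genes.

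With housekeeping centring 8 members were higher in mutants at dp12, and the housekeeping list averaged 9.56 to 9.61 in mutants and 9.51 to 9.53 in wild type. All 10 fibroblast genes were lower in mutants at dp12, with a median of -0.72 and mean levels of 8.68 to 9.23 in mutants against 9.34 to 9.78 in wild type. Luminal genes averaged 9.70 to 9.73 in mutants and 9.79 to 9.84 in wild type, and the part of either list in the members' values was not tested. At dp18 most members had the lower mean in mutants, with a median of -0.17 against 0.0053 over all genes. Differences ran from -0.54 for Nr4a1 to 0.0044 for Dusp1, 9 of 10 being negative beside 48.8% of genes, and none passed (0 genes, 0%), nor did any have an unadjusted p under 0.05 (0.656% of genes). Egr2 and Nr4a1 were lower in mutants without overlap, against 1.07% of genes. Nr4a1 read 10.89, 10.47 and 10.98 in mutants and 11.52, 11.17 and 11.28 in wild type.

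Averaged over the 4 stages the genotype difference was positive for 5 members (49.5% of genes) and negative for 5 (50.5%), running from -0.18 for Nr4a1 to 0.10 for Egr1, and none passed (0 genes, 0%, and 0 members against 3.01% of genes at an unadjusted p under 0.05).

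Ier2 was the member that moved between V and dp12. Averaged over the genotypes it rose by 0.85 (SE 0.23, adjusted p = 0.0148), 1.80-fold, where 13% of genes rose and 15.8% changed in either direction. It read 8.62, 8.94 and 9.06 at dp12 and 8.03, 7.88 and 8.07 at V in mutants. In wild type it read 8.24, 8.47 and 7.88 at dp12 and 7.44, 8.02 and 6.68 at V. The mutant stages did not overlap and the wild-type ones did, and no member passed in either genotype alone, where 4.44% of genes in mutants and 6.45% in wild type did. At an unadjusted p under 0.05 these steps had Ier2 in mutants (15.3% of genes) and Atf3, Ier2 and Nr4a1 in wild type (32.4%).

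The call for Ier2 was lost without wild-type V replicate 3 (0.67, adjusted p = 0.0505) and with housekeeping centring (0.40, adjusted p = 0.140), 20 of 21 housekeeping genes being higher at dp12 (60.7% of all genes). In these settings 1631 and 2978 of all genes were called, against 2400 as reported. Atf3 (0.50) and Nr4a1 (0.61) had adjusted p of 0.0729 and 0.0737. In the next step, dp12 to dp18, all 10 members had lower means over both genotypes, beside 65.8% of genes, and Ier2 (-0.77) and Egr2 (-0.48) had adjusted p of 0.0653 and 0.0688. No member passed, where 2.05% of genes did, and 5 had an unadjusted p under 0.05 (29% of genes). In mutants alone 9 members, all but Dusp1, had dp18 arrays below every dp12 array, against 20.6% of genes, and in wild type Egr2 alone did (18.9%). The mutant minus wild-type difference in this step passed for no member and for 0 genes (0%), with Fos (-0.62) alone at an unadjusted p under 0.05 (0.414% of genes).

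Members differed in how tightly arrays of a group held together. The SD within groups was 0.215 for Jun, 0.217 for Fos, 0.219 for Dusp1 and 0.221 for Egr2, near the tenth percentile of all genes. It was 0.403 for Ier2 and 0.412 for Nr4a1, just above the median of all genes, 0.374. Group means spanned 1.76 for Ier2 and 1.47 for Fosb but 0.490 for Junb and 0.475 for Dusp1, where the median gene spanned 0.828. Junb, whose protein is often a brake on JUN, overlapped between the genotypes at V, dp18 and Lac10.

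Arrays that were high for 1 member tended to be high for the others. Over deviations from the 8 group means, all 45 pairs of members had a positive Pearson correlation, with a median of 0.596, from 0.202 for Fosb with Jun to 0.902 for Atf3 with Ier2. These correlations share arrays, probe labelling and normalization, and are given as a description. Pairs of all genes were not computed, so the count has no background beside it. Deviations of the members also correlated with those of the housekeeping median, from 0.053 for Nr4a1 to 0.532 for Egr2. Without removing group means the median was 0.667.

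For Fos the relation to each of the other 9 members was tested by 100000 shuffles within groups, adjusted over the 9. Ier2 followed it most closely, with Pearson r = 0.702 (permutation p = 0.00673, adjusted 0.0606) and Spearman rho = 0.715 (permutation p = 0.00379, adjusted 0.0341). Egr1 had r = 0.655 and Dusp1 r = 0.602, both with an adjusted permutation p of 0.0644, and Nr4a1 and Junb were lowest at 0.248 and 0.280. Without the 2 arrays farthest from the median for Fos, wild-type dp12 replicates 2 and 3, r was 0.708 for Ier2 (adjusted permutation p = 0.156) and no relation passed. Housekeeping centring subtracts the same value of an array from both genes, which raises r by itself, so its correlations are not read here.

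**Figure D4:**
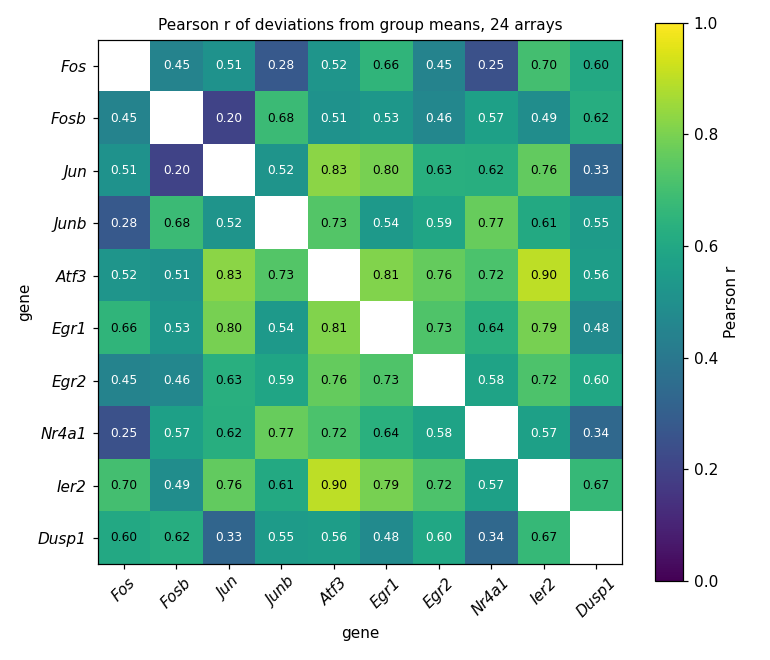
Pearson r between members over deviations of the 24 arrays from their group means, with the colour scale running between 0 and 1. Values in the block of Jun, Atf3, Egr1 and Ier2 run from 0.76 to 0.90, while outside it Junb with Nr4a1 reaches 0.77. Fosb with Jun is the lowest, 0.20.

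Most other genes of the response lay on the same side as the members at Lac10 and at V. Of 46 further immediate early genes listed, 42 were tested. At Lac10, 38 were lower in mutants with a median of -0.62 and none passed, the largest values being Cebpd, a zipper factor of the acute phase (-1.45, adjusted p = 0.0846), and Zfp36, which speeds decay of inflammatory mRNAs (-1.21, adjusted p = 0.0739). At V, 38 were higher with a median of 0.42 and none passed. All genes had 66.4% lower and a median of -0.19 at Lac10, and 67.4% higher and a median of 0.20 at V, as given for the members. Between V and Lac10 in mutants 7 of the 42 fell, where 2.59% of all genes did, among them Myc, the growth regulator (-1.88, adjusted p = 0.0224), Trib1 (-1.81), the ERK phosphatase Dusp6 (-1.21) and the Krüppel-like factor Klf4 (-1.20). In wild type 3 rose (6.01% of all genes) between V and Lac10, the growth arrest genes Gadd45g (1.50) and Btg2 (0.99) and Zfp36 (1.08).

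Signalling genes upstream were read next. Of 25 tested genes that carry the signal to SRF and CREB, 24 were higher in mutants at V, beside 67.4% of all genes. In mutants at Lac10, 22 of them were lower, beside 66.4% of all genes, and none passed in either comparison. Srf itself differed by 1.24 at V (adjusted p = 0.211). Between V and Lac10 in mutants 2 fell (2.59% of all genes), Map2k4, a kinase of the JNK pathway (-1.60, adjusted p = 0.0236), and the cyclic AMP responsive factor Crem (-1.16, adjusted p = 0.0156). Of 20 partners and brakes of AP-1, 17 were lower in mutants at Lac10 (66.4% of all genes) and none passed. Spry4, an inhibitor of the RAS to ERK pathway, had the largest value (-1.97, adjusted p = 0.0827).

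Of 18 tested genes known as AP-1 or EGR targets, 4 fell between V and Lac10 in mutants (2.59% of all genes): Il6 (-3.41), Hmox1 (-2.78), Hbegf, an EGF receptor ligand (-2.60), and Thbs1 (-1.95). In wild type none passed, although 15 of the 18 were lower (38.5% of all genes), with a median of -0.89 against -0.95 in mutants. Between the genotypes at Lac10 the 18 had a median of -0.42 and none passed. Over both genotypes 5 of them fell between V and dp12, where 2.8% of all genes did, among them Hmox1 (-1.90) and the chemokine Cxcl2 (-1.44), so these targets and Ier2 passed in opposite directions in that step.

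Heat shock genes, which respond to protein damage, were read beside the members since both answer to stress. Of 12 tested, 11 were higher in mutants at V (67.4% of all genes) and 10 lower at Lac10 (66.4%), none passing. Between V and Lac10 in mutants 5 fell, where 2.59% of all genes did, among them Hsph1 (-2.19, adjusted p = 0.0330), Bag3 (-1.63, adjusted p = 0.0215) and Hsp90aa1 (-1.51, adjusted p = 0.0184). In wild type none passed. The lists of housekeeping, luminal, heat shock and other immediate early genes all had their lowest array in mutant Lac10 replicate 2, and their part in the members' values was not tested beyond the centring given above.

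**Figure D5:**
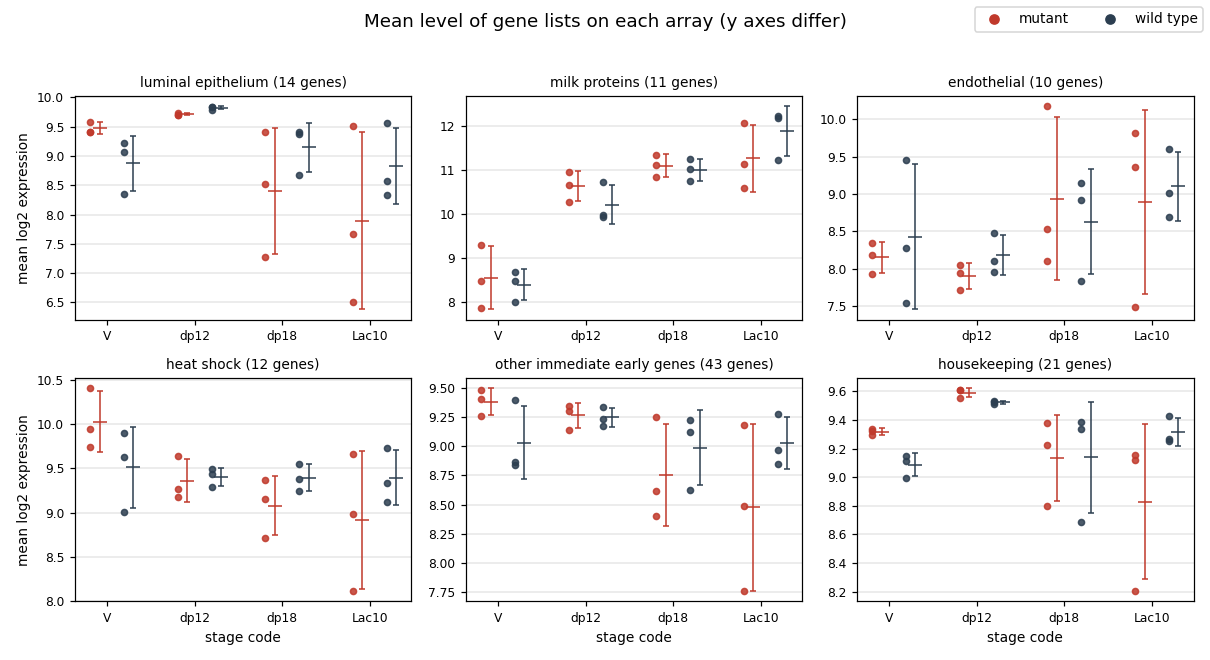
Mean log2 expression of 6 gene lists on each array by stage code, mutant left of wild type, with bars for the group mean and SD (n = 3). At Lac10 the mutant arrays spread widely, with housekeeping means of 8.20 to 9.16 in mutants against 9.25 to 9.43 in wild type.

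The tested genes outside the list whose values over the 24 arrays were most like the mean of the members included Mir1938 (r = 0.885), the mitochondrial genes Ppif (0.870) and C1qbp (0.853), and Calr, the chaperone calreticulin (0.867). Over deviations from group means they were Ddit3, a transcription factor of the endoplasmic reticulum stress response (0.892), Ptger4, a prostaglandin receptor (0.860), Uqcrh (0.857) and Gadd45g (0.835). These correlations over 24 arrays are descriptions of likeness, and the 8 highest were chosen for each measure.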

How the data were processed

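The 24 single-colour arrays held biotin-labelled cRNA made from Trizol-extracted total RNA, per the labels' protocols. Log2 expression values were deposited, made by the authors with RMA per the submitters' processing notes (version not given in the sources used here), and their between-array normalization was kept. RMA brings arrays towards a common distribution, so the true size of a global shift is not visible. Array medians still ran from 5.31 to 5.62. The number of arrays limits the precision, the median standard error of a single comparison being 0.30.

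Groups came from the titles and stage labels, with replicate numbers from the titles for wild type and from accession order for mutants. A single symbol was annotated for 23521 of the 41345 probe sets, several symbols for 1814 and none for 16010, and genes were named from single symbols alone. Where a gene had several probe sets the brightest on average stood for it, and of 22180 genes the 15234 with at least 3 arrays above that array's median were tested. limma 3.58.1 in R 4.3.3 fitted 1 mean per group over 24 arrays (16 residual and 4.35 prior degrees of freedom), p-values being adjusted by Benjamini-Hochberg at a threshold of 0.05. The fit and the permutation test were tested on simulated data.

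All 10 members are named; from each of the 18 gene lists up to 4 genes that passed with the largest change, or the 2 largest as values, and the 8 genes most like the members by each of 2 correlations. The members and lists were chosen with earlier results of these data known. Wild-type replicate numbers were checked for pairing: of 18 pairs of same-numbered arrays 4 had correlated deviations over 0.1 (-0.387 to 0.310). Arrays with different numbers were not correlated for comparison, so the check cannot tell whether same-numbered arrays were paired. The arrays were treated as unpaired. Alternatives covered probe set choice, filters, centring, a variance trend, array weights, subsets of arrays, body weight (22 arrays) and a replicate block. Promoters came from RefSeq (GRCm38.p6).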

Additional observations from a re-analysis of the deposited data

Results flagged for a closer look

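Fos, Jun and Egr1 were higher in mutants at V and lower in mutants at Lac10, with no overlap between the genotypes at either stage. The genotype difference at Lac10 minus that at V was -1.63 for Fos, -1.07 for Jun and -1.32 for Egr1. For Fos and Jun the Lac10 and V arrays were also apart in opposite directions in mutants and wild type, which is the same contrast seen the other way (-1.63 and -1.07). The limma test of this contrast did not pass for any of them (adjusted p = 0.0512 for Fos, 0.0636 for Jun and 0.0644 for Egr1), and 4.15% of all genes showed the first pattern and 4.14% the second. The second pattern for Jun was a near tie in wild type, with the highest V array at 11.7592 and the lowest Lac10 array at 11.7625.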

How the results depend on the processing

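Numbers below are members called of 10, with the number of all 15234 genes called under the same setting in brackets (fewer were tested with the filter of 12 arrays), and no member called as reported changed direction under any alternative. As reported the counts were 0 for genotype at V (4 genes), dp12 (0) and Lac10 (36). They were 0 (677), 2 (438), 0 (983), 0 (0) and 1 (1103) for mutant V to dp12 and V to Lac10 and wild-type V to dp12, dp18 to Lac10 and V to Lac10, and 1 (2400), 0 (313), 0 (0) and 1 (1006) for both genotypes V to dp12, dp12 to dp18, dp18 to Lac10 and V to Lac10. The genotype difference had 0 in the steps V to dp12 (1) and V to Lac10 (3) and 0 in the F test (1).

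Array weights gave 7 at V (5573), 1 at dp12 (145), 2 at Lac10 (3306), 3 for mutant V to dp12 (4104), 6 for wild-type V to dp12 (9731), 5 for wild-type dp18 to Lac10 (3898), 6 for wild-type V to Lac10 (8232), 6 for both genotypes V to dp12 (9167) and 4 dp12 to dp18 (2558), 2 for the genotype difference in V to dp12 (4302) and 6 in V to Lac10 (6343), and 6 in the F test (5990). Body weight as a covariate gave 3 at Lac10 (1613), 1 for mutant V to Lac10 (305), 2 for wild-type V to dp12 (4979), wild-type V to Lac10 (2709) and both genotypes V to dp12 (3232), 7 for the difference in V to Lac10 (4563) and 3 in the F test (669). That fit also left out mutant and wild-type dp18 replicate 1, which have no body weight. Housekeeping centring gave 1 for mutant V to Lac10 (623) and 2 for both genotypes V to dp12 (2978), where Dusp1 and Egr2 fell and Ier2 did not pass. A variance trend gave 1 at Lac10 (37), 4 for mutant V to Lac10 (446) and 1 for the difference in V to Lac10 (16). A filter of at least 12 arrays gave 1 at Lac10 (65) and 1 for that difference (63), and the mean of a gene's probe sets also gave 1 for it (4). The compared groups alone gave 1 for mutant V to dp12 (2771), 0 for mutant V to Lac10 (9), 1 for wild-type V to dp12 (5964) and 3 for both genotypes V to dp12 (6860).

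The following sets were left out after seeing the data. Without the 3 arrays of lowest correlation there were 3 at V (3067), 1 for mutant V to dp12 (1605), 1 for mutant V to Lac10 (355), 2 for wild-type V to dp12 (6271), 3 for wild-type V to Lac10 (4238), 3 for both genotypes V to dp12 (5992), 5 for the difference in V to Lac10 (2012) and 1 in the F test (810). Without the 2 Lac10 arrays there were 7 for mutant V to Lac10 (1827), 3 for both genotypes V to dp12 (2448), 1 for dp18 to Lac10 (137) and 3 for V to Lac10 (2010), and 2 for the difference in V to Lac10 (337). Without all 5 there were 4 at V (4031), 1 for mutant V to dp12 (2211), 3 for wild-type V to dp12 (7113), 3 for wild-type V to Lac10 (4338), 3 for both genotypes V to dp12 (6801), 1 for dp18 to Lac10 (829), 2 for V to Lac10 (4770) and 1 for the difference in V to Lac10 (595).

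Leaving out each array in turn gave 0 to 4 at Lac10, 1 to 7 for mutant V to Lac10, 0 to 2 for wild-type V to Lac10, 0 to 3 for both genotypes V to dp12, 0 to 2 for dp12 to dp18 and 1 to 2 for V to Lac10, 0 to 6 for the difference in V to Lac10 and 0 to 1 in the F test. The highest counts came with 1794 genes for mutant V to Lac10 and with 1580 or 664 for wild-type V to Lac10. For both genotypes they came with 3114 or 2481 (V to dp12), 1912 or 1642 (dp12 to dp18) and 1766 (V to Lac10). The F test had 141. Calls at Lac10 came without mutant Lac10 replicate 1 (4 members, 292 genes) or 3 (3 members, 1390 genes). For Fos alone they came without wild-type dp12 replicate 3 (38 genes), dp18 replicate 1 (93) or Lac10 replicate 1 (296), against 36 genes as reported. The difference in V to Lac10 had 6 without mutant Lac10 replicate 1 (657) and 5 without mutant Lac10 replicate 3 (3825), mutant dp18 replicate 1 (1114) or wild-type dp18 replicate 1 (2206). It had Fos alone without mutant dp18 replicate 2 (5) or 3 (121), wild-type dp12 replicate 3 (3) or wild-type Lac10 replicate 1 (192). The replicate block changed no call in wild type (0 for V to dp12 and 1, Fos, for V to Lac10). Uncalled member differences had another sign in 265 of 7769 alternatives. The cause of these changes was not tested. The number of arrays, 3 a group, limits what could be called.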
